A study of Mus musculus with 3 samples.

Results

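Natural killer cells were taken from single-cell RNA sequencing libraries of mouse blood leukocytes as barcodes that carried natural killer receptor transcripts and lacked those of T cells, B cells and neutrophils. A member had at least 200 detected genes and at most 10% of its unique molecular identifiers (UMIs, one per captured transcript) from mitochondrial mt- genes. It had at least 2 UMIs over Ncr1, Klrb1c and Klre1, at most 1 over the CD3 genes Cd3e, Cd3d and Cd3g, at most 1 over Cd79a and Cd79b, and under 3% of its UMIs from S100a8 and S100a9. Of 22204 barcodes, 18885 passed the gene and mitochondrial limits, and 513 of these were natural killer cells. They numbered 280 in library 1, 83 in library 2 and 150 in library 3, where a library is the set of barcodes with the same number at its end.

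Natural killer cells are innate lymphocytes that kill stressed, infected or transformed cells by releasing perforin and granzymes, and that secrete interferon gamma and chemokines. They rearrange no antigen receptor. In mice their activity is set by germline-encoded receptors, among them the Ly49 (Klra), NKG2 (Klrc, Klrd1, Klrk1) and NKR-P1 (Klrb1) families, of which some carry inhibitory and others activating signals, and many Ly49 genes are switched on in only a part of the cells. In blood most natural killer cells are mature, and maturation is classically followed by the loss of the surface protein CD27 and the gain of CD11b (Itgam) and KLRG1.

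The study compared leukocytes of C57/BL6J mice that were undisturbed (Con, 0 h) with those of mice after 24 h (SD24h) or 48 h (SD48h) of sleep deprivation. A further sleep restriction condition of the series (SASD) was not analysed here. Each group was 1 library made from the pooled leukocytes of 3 mice, after lysis of red cells, with a 3′ droplet kit. No label ties a barcode ending to a group. Libraries 1, 2 and 3 are therefore not assigned to Con, SD24h or SD48h, no comparison between these groups was made, and the numbers of the libraries give no order in time. With 1 library a group there is also no replicate, so differences are given as ratios with exact 95% intervals that cover counting error only, and no test was made.

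To show the genome near genes on which the account below turns, the 250 bases before the annotated start of 5 genes are printed 5′ to 3′ on the gene's strand, from the RefSeq table of build GRCm38.p6. Ncr1 and Gzma were found in nearly all members, and Klra4, Klra8 and Klra1 in a part of them. Capitals mark matches, on either strand, to the letters TCACAC (T-box), TGTGGT (RUNX) and AGGAAG (ETS), short core motifs of factor families with members active in lymphocytes.
Ncr1 (chr7:4337465-4337714, plus strand): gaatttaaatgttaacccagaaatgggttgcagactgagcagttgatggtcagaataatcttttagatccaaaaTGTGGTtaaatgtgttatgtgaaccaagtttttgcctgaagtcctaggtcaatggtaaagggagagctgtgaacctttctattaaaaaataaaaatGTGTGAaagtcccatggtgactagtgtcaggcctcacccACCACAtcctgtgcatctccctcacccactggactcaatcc
Gzma (chr13:113100982-113101231, minus strand): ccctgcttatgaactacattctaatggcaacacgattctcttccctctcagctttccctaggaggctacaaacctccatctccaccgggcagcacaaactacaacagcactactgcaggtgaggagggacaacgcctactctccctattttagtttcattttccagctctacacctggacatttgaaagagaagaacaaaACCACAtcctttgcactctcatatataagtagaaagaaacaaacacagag
Klra4 (chr6:130067272-130067521, minus strand): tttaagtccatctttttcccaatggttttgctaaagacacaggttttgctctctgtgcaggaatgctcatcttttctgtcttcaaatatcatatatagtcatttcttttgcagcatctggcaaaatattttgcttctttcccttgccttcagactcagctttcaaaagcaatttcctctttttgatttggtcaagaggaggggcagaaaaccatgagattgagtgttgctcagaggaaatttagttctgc
Klra8 (chr6:130129899-130130148, minus strand): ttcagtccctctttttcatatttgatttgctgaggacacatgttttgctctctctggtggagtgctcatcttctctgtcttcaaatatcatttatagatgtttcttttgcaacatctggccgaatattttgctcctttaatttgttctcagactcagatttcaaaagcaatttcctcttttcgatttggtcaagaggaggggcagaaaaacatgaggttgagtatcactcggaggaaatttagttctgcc
Klra1 (chr6:130386875-130387124, minus strand): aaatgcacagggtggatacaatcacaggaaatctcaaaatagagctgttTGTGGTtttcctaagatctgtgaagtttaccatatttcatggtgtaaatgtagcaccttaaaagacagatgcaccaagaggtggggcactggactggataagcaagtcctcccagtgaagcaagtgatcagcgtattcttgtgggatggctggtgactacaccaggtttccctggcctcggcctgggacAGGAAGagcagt
The Ncr1 window holds 1 T-box match, 80 bases before the start, and 2 RUNX matches, 176 and 41 bases before it. The Gzma window holds 1 RUNX match, 50 bases before the start. The Klra1 window holds 1 RUNX match at 201 bases and 1 ETS match at 12 bases before the start, and neither the Klra4 nor the Klra8 window holds any of the 3 motifs. Of 32851 windows of the same length in the table, 12.3% hold the T-box letters, 14.0% the RUNX letters and 29.5% the ETS letters, and a match is only a description. In pairwise alignments, 212 of 250 bases (84.8%) were identical between the Klra4 and Klra8 windows, 139 (55.6%) between Klra4 and Klra1, and 145 (58.0%) between Klra8 and Klra1.

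The members made up 3.93% of the kept barcodes in library 1 (280 of 7122, exact binomial 95% interval 3.49 to 4.41%), 1.39% in library 2 (83 of 5978, 1.11 to 1.72%) and 2.59% in library 3 (150 of 5785, 2.20 to 3.04%). T cells, defined by at least 2 CD3 UMIs and at most 1 UMI of the 3 natural killer genes, made up 16.4%, 8.82% and 13.8% in the same order. Barcodes with 3% or more of their UMIs from S100a8 and S100a9, genes of neutrophils and monocytes, and at most 1 UMI each of the CD3, CD79 and natural killer gene sets made up 6.80%, 53.9% and 34.4%, and any share of one type is set in part by the number of barcodes of the others. With all barcodes at 3% or more left out, whatever else they carried, the members' share was 4.25% of 6587 barcodes in library 1, 3.21% of 2582 in library 2 and 4.11% of 3652 in library 3. Their UMIs had a median of 3952 per cell in library 1, 4261 in library 2 and 4599 in library 3, with 1657.5, 1758 and 1802 genes, and summed to 1184260, 352367 and 744637 UMIs. Library 2 thus holds the least data: 3 UMIs there are 8.51 CPM (UMIs of a gene per 1000000 UMIs of the summed cells), against 2.53 CPM in library 1 and 4.03 CPM in library 3. Of the barcode sequences, 61 occurred in more than 1 library, and 2 members carried such a sequence.

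Few barcodes lay at the limits on the natural killer and CD3 genes, and more at that on the CD79 genes in library 1. The 3 natural killer genes together had a median of 12, 13 and 13.5 UMIs per member in libraries 1, 2 and 3, and 196, 58 and 111 members had 10 or more. Just inside the limit, 2, 1 and 2 members had exactly 2 UMIs, and just outside it 11, 2 and 2 barcodes had 1 UMI and met all else. Most members, 255, 78 and 144, had no CD3 UMI at all, and 25, 5 and 6 had 1. A single UMI of Cd79a and Cd79b was carried by 56, 3 and 7 members, and just outside that limit 7, 0 and 0 barcodes had 2 UMIs and met all else.

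All 8 marker genes named for natural killer cells were detected in members of every library, at levels far above those of T cells. Ncr1 (NKp46, an activating receptor, chr7:4337724-4345164 on GRCm38), which the rule used, had 907, 917 and 902 CPM in members of libraries 1, 2 and 3, against 0.267, 0.581 and 0 CPM in T cells. Gzma (granzyme A, a serine protease of cytotoxic granules, chr13:113093825-113100981), which it did not use, had 11486 CPM (Poisson 95% interval 11293 to 11680), 12419 and 11338 CPM in members and 11.8, 1.45 and 17.7 CPM in T cells. It was found in 97.9%, 100% and 98.0% of members, against 3.51%, 0.759% and 2.50% of T cells and 2.34%, 0.490% and 1.28% of B cells. Prf1 (perforin, which forms the pore, chr10:61297833-61304680) had 1040, 954 and 992 CPM in members and 31.7, 26.7 and 31.1 CPM in T cells. Ccl5, a chemokine for T cells and monocytes, reached 15391, 19275 and 17010 CPM in members and 752, 375 and 444 CPM in T cells. Klrk1, the receptor NKG2D for stress ligands, was detected in 98.6%, 97.6% and 100% of members and in 3.76%, 1.71% and 3.00% of T cells. Ncr1, Klrb1c and Klre1 were set apart by the rule. Gzma, Prf1, Ccl5 and Klrk1 were at least 2-fold higher than in T cells in all 3 libraries, with each interval excluding 1. The same held for 657 of all 8425 measured genes (7.8%).

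**Figure D1:**
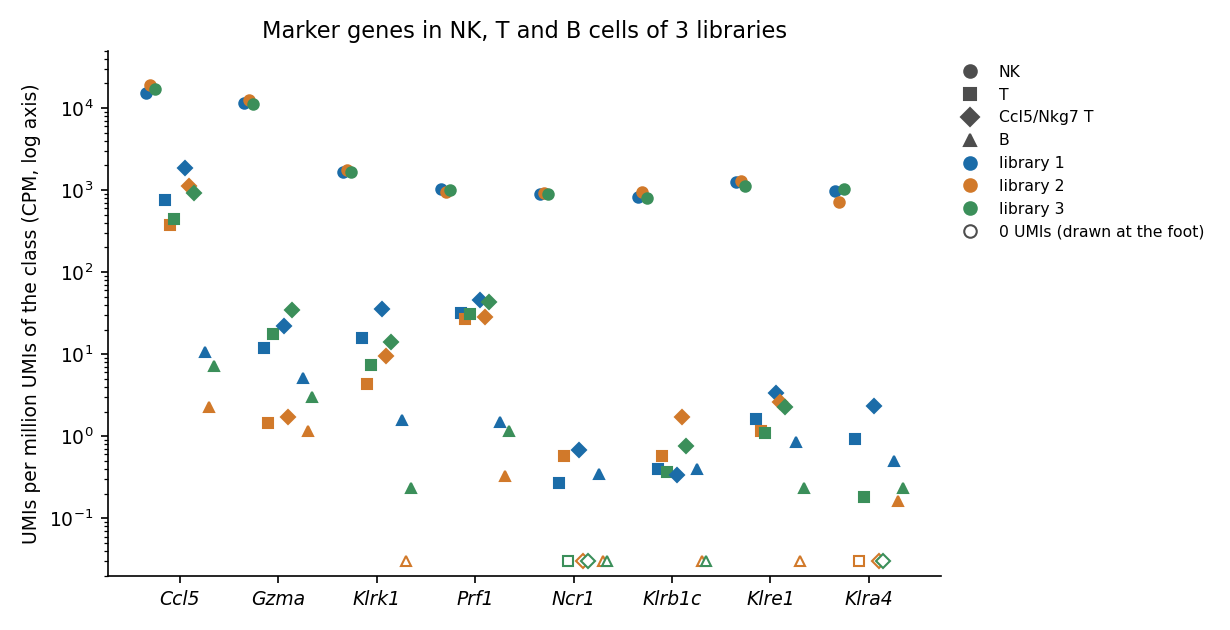
Level in CPM (log axis) of the 8 marker genes in natural killer cells, T cells, T cells with Ccl5/Nkg7 transcripts and B cells, with 1 point per library, no intervals drawn, and open symbols at the foot for 0 UMIs. Gzma lies between 11338 and 12419 CPM in natural killer cells and between 1.45 and 17.7 CPM in T cells.

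Because CD3 and the natural killer genes chose both sides, the contrast of members with T cells describes the 2 classes and tests nothing. A gene was called where its CPM differed at least 2-fold in one direction in all 3 libraries, with each interval excluding 1, among genes with at least 20 UMIs over both classes in every library. Of 8425 such genes, 657 (7.8%) were higher and 237 (2.81%) lower in natural killer cells. Ribosomal protein genes took 18.4%, 20.1% and 22.4% of the UMIs of members but 41.4%, 41.2% and 41.7% of those of T cells, and the median log2 ratio of all genes was 0.42. TMM factors of edgeR, which centre the bulk of genes, gave 349 higher and 435 lower, so 44.5% of the calls were higher, against 73.5% by CPM. The lists below are therefore read beside the median of 0.42 and the shares of 7.8% higher and 2.81% lower of all genes. Their counts are by CPM, and no list was counted with TMM factors. The most separated genes named by rank were Khdc1a, with 148, 201 and 173 CPM in members, Dab2ip with 60, 62.4 and 53.7 CPM and Serpinb9b with 70.9, 102 and 83.3 CPM, and each had 0 UMIs in T cells of every library. At the other end stood Cd40lg, the helper T cell ligand, at 31.0, 22.9 and 21.7 CPM in T cells, and Izumo1r, Tmie, Actn2, Matk, Kcnmb4 and Tgtp1, all with no UMI in members beside Cd3e.

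A closer reference was the T cells with at least 3 UMIs of Ccl5 and Nkg7, 372, 147 and 319 cells, which carried Cd8b1 at 1141, 1246 and 1183 CPM and Ccr7 at 284, 311 and 332 CPM. Against these cells, 539 of 6221 genes (8.66%) were higher and 194 (3.12%) lower in natural killer cells, at a median log2 ratio of 0.47. TMM factors turned the balance to 268 higher and 365 lower, and without library 2 the CPM gave 922 higher. The markers that chose neither side, Gzma, Prf1, Klrk1 and Klra4, were higher by both scalings; Ncr1, Klrb1c and Klre1 chose the members and Ccl5 these T cells. Prf1 had 46.3, 28.4 and 43.3 CPM in these T cells and Gzma 22, 1.72 and 34.5 CPM, so both stayed far below the members' levels.

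Among the Ly49 receptors, all 5 of the 5 measured genes were called higher than in T cells, against 7.8% of all genes. Klra4 (Ly49D, an activating receptor that pairs with DAP12, chr6:130043731-130067271) had 965, 724 and 1029 CPM and was detected in 50.7% (44.7 to 56.7%), 43.4% (32.5 to 54.7%) and 57.3% (49.0 to 65.4%) of members. In T cells it was detected in 0.257%, 0% and 0.125%, and in B cells in 0.231%, 0.0700% and 0.0988%. Klra8 (Ly49H, the activating receptor for a cytomegalovirus protein, chr6:130115226-130129898) had 771, 704 and 559 CPM and was found in 63.9%, 59.0% and 60% of members, against 0.342%, 0% and 0% of T cells. T cells were deeper than members, with medians of 6155, 6266 and 6317 UMIs, and B cells had 3984.5, 3831 and 3637 UMIs. With every cell thinned to 1500 UMIs, which left out 2, 3 and 1 members, Klra4 was found in 45.0%, 41.2% and 50.3% of members and Klra8 in 50.4%, 48.8% and 44.3%.

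The other Ly49 genes also marked a part of the cells. Klra9 (Ly49I, inhibitory) had 670, 593 and 604 CPM and was found in 62.5%, 50.6% and 66.0% of members. Klra7 (Ly49G, inhibitory) was found in 42.5%, 44.6% and 36.0%, and Klra3 (Ly49C, inhibitory) in 38.6%, 33.7% and 41.3%. The positive cells carried several UMIs each: the median was 7, 5 and 8 UMIs for Klra4 and 4, 3 and 3 for Klra8, and only 3 of 142, 0 of 36 and 6 of 86 Klra4-positive members had a single UMI. Reads of these related genes can be split between them where they share sequence, and the authors' counting does not settle this. Of the 60-base stretches in the last 400 bases of the GENCODE transcripts, 30.5% in Klra9, 24.8% in Klra3 and 21.1% in Klra7 occurred in another Klra gene, against 8.21% in Klra8, 4.81% in Klra1 and 0% in Klra4.

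Klra1 (Ly49A, inhibitory, chr6:130363917-130386874) was the Ly49 gene with the widest spread between libraries among those 6. It was detected in 34 of 280 members of library 1 (12.1%, 8.56 to 16.6%), 3 of 83 of library 2 (3.61%, 0.752 to 10.2%) and 18 of 150 of library 3 (12%, 7.27 to 18.3%). Its level was 141, 25.5 and 120 CPM, so library 1 stood 5.52-fold over library 2 (2.84 to 12.3) and library 2 at 0.214 of library 3 (0.0946 to 0.424). The positive cells in library 2 had 9 UMIs in all, and their share there overlapped the intervals of the others. T cells had 1.87, 1.45 and 0.921 CPM. Each library pooled 3 mice, and the part of single animals in this difference was not tested. Klra6 had 8.44, 0 and 22.8 CPM, Klra5 9.29, 19.9 and 13.4 CPM, and Klra17 no UMI.

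Counting the 6 genes Klra1, Klra3, Klra4, Klra7, Klra8 and Klra9 per cell, members carried a mean of 2.70, 2.35 and 2.73 of them in libraries 1, 2 and 3. None of the 6 was seen in 9, 5 and 5 members, and all 6 in 2, 0 and 1. After thinning the means were 2.01, 1.89 and 2.15. Klra4 was detected in 59.2% of Klra8-positive and 35.6% of Klra8-negative members of library 1, in 51.0% and 32.4% in library 2, and in 57.8% and 56.7% in library 3. Thinned, the shares were 51.4% and 38.4%, 51.3% and 31.7%, and 47.0% and 53.0%, so the thinned share was higher in Klra8-positive members of libraries 1 and 2 and lower in those of library 3.

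**Figure D2:**
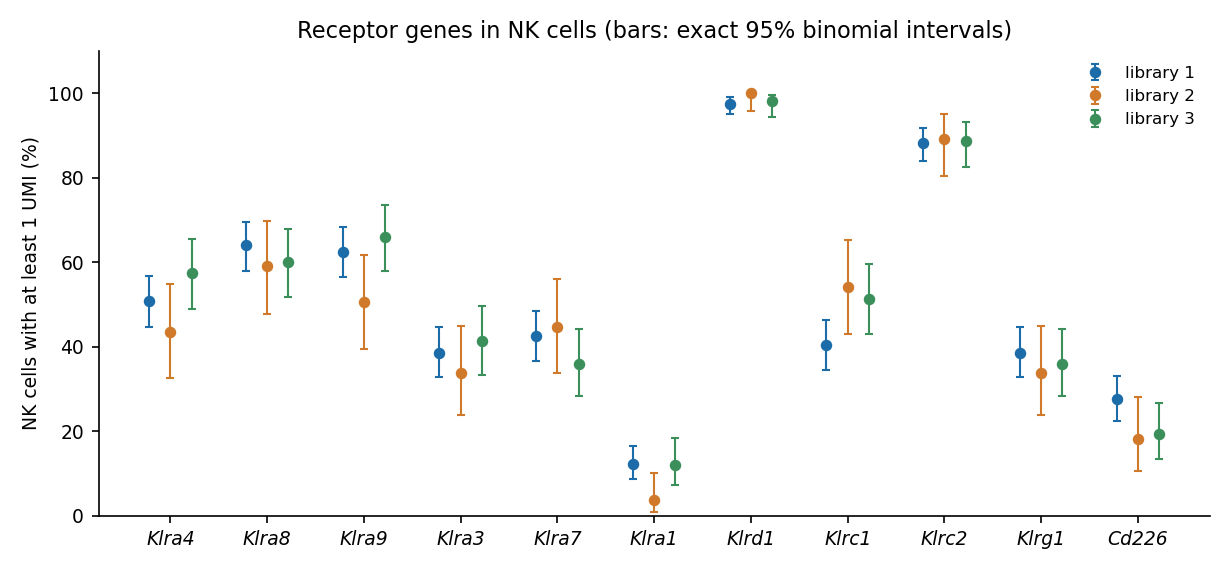
Share of natural killer cells (percent) with at least 1 UMI of each receptor gene, by library, with exact binomial 95% intervals and unthinned counts. Klra4 and Klra8 were each found in 43.4 to 63.9% of cells and Klra1 in 3.61 to 12.1%, while Klrd1 was found in nearly all.

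The NKG2 and NKR-P1 receptors were broadly expressed, and 11 of 13 measured genes were called higher than in T cells and none lower (list median log2 7.81, against 0.42 for all genes). Klrb1c and Klre1, which chose the members, were among the 11. Their calls were set by the rule, and they also enter the median. Klrd1 (CD94, the partner chain of the NKG2 receptors) was found in 97.5%, 100% and 98.0% of members but also in 41.6%, 34.0% and 38.8% of T cells. Klrc2 (NKG2C, activating) had 670, 772 and 599 CPM and was found in 88.2%, 89.2% and 88.7% of members. Klrc1 (NKG2A, inhibitory) was found in 40.4% (34.6 to 46.4%), 54.2% (42.9 to 65.2%) and 51.3% (43.0 to 59.6%), against 1.37%, 0.380% and 0.999% of T cells. The NKR-P1 genes Klrb1f, Klrb1a and Klrb1b were found in 55.7 to 67.5%, 40.4 to 50% and 31.3 to 33.7% of members. Klri2, a receptor of the same chromosomal cluster that pairs with Klre1, had 299, 403 and 289 CPM in members and 0.267, 0 and 0 CPM in T cells. Clec2d, a ligand of NKR-P1 receptors, was not called, with 267, 298 and 287 CPM in members and 272, 249 and 221 CPM in T cells.

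Of 12 other activating or regulatory receptors, 6 were higher and 2 lower than in T cells (all genes: 7.8% and 2.81%). Ncr1, which the rule used, was among the 6, so its call was set by the rule. Cd244 (2B4, which binds CD48) had 307, 264 and 321 CPM in members and 2.27, 5.52 and 5.71 CPM in T cells. Slamf7 had 110, 145 and 110 CPM in members and 7.09, 1.16 and 4.24 CPM in T cells. Fcgr3 (CD16, the receptor for antibody-coated cells) was higher at 60, 79.5 and 68.5 CPM, against 7.35, 8.72 and 10.3 CPM. Slamf6, at 22, 22.7 and 37.6 CPM in members and 309, 334 and 341 CPM in T cells, and Cd69, an early activation marker, at 31.2, 70.9 and 68.5 CPM and 108, 151 and 169 CPM, were the lower ones. Of the checkpoint receptors, Pdcd1 had no UMI in members of any library and Tigit had 0, 0 and 2.69 CPM.

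Adaptor chains of innate receptors were among the genes higher than in T cells. Tyrobp (DAP12, the adaptor of Ly49D and Ly49H) had 3362, 3641 and 3423 CPM in members and 65.3, 102 and 134 CPM in T cells, and Fcer1g (the chain of NKp46 and CD16) had 3060, 3244 and 3081 CPM in members and 155, 139 and 168 CPM in T cells. Both were found in 98.8% or more of members. Syk, a kinase that docks on these chains, had 98.0, 93.7 and 69.8 CPM in members, against 11.0, 5.52 and 5.71 CPM in T cells. Lat, the T cell receptor's adaptor, was lower at 79.4, 79.5 and 77.9 CPM, against 343, 444 and 463 CPM, while its homologue Lat2 was higher at 156, 125 and 140 CPM, against 2.01, 1.45 and 3.13 CPM. Hcst (DAP10, the NKG2D adaptor), Lck, Cd247 and Zap70 were not called. In all, 7 of 14 adaptors were higher and 1 lower (all genes: 7.8% and 2.81%).

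Of 18 measured granule and killing genes, 10 were higher than in T cells and none lower (all genes: 7.8% and 2.81%). Besides Gzma and Prf1 these were Gzmb (granzyme B, which cleaves caspases), at 770, 857 and 1195 CPM in members and 11.0, 14.2 and 8.84 CPM in T cells, and Nkg7, at 3725, 4138 and 4283 CPM and 355, 313 and 439 CPM. Serpinb9, which protects the killer from its own granzyme B, had 264, 440 and 436 CPM in members and 9.49, 9.59 and 9.39 CPM in T cells. Fasl (the death ligand of Fas) had 124, 150 and 134 CPM, against 3.61, 0.872 and 3.13 CPM. Ctsw, Cst7, Ctsc and Serpinb6b completed the list. The release machinery (Unc13d, Stxbp2, Rab27a, Lamp1) was not called, nor was Srgn, the granule proteoglycan, with 850, 738 and 689 CPM in members and 512, 409 and 446 CPM in T cells. Gzmk, Gzmc and Gzmm each stayed at or below 14.2 CPM.

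Of 8 measured cytokine and chemokine genes, 4 were higher and 1 lower than in T cells (all genes: 7.8% and 2.81%). Ccl4 had 450, 261 and 389 CPM in members and 2.54, 2.03 and 1.10 CPM in T cells, and Xcl1, which draws in dendritic cells, 232, 281 and 320 CPM and 6.82, 1.45 and 3.87 CPM. Ltb (lymphotoxin beta) was the lower gene, at 88.7, 145 and 94.0 CPM in members and 701, 648 and 664 CPM in T cells. Ifng was found in 21.1% (16.4 to 26.3%), 10.8% (5.08 to 19.6%) and 26.7% (19.8 to 34.5%) of members, against 0.428%, 0% and 0.375% of T cells. Tnf had 1 UMI over all members and Il10 none.

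Receptors for the cytokines that prime natural killer cells were present. Il2rb, the shared receptor chain for interleukin-2 and interleukin-15, had 689, 780 and 690 CPM in members and 63.2, 37.8 and 44.4 CPM in T cells. Il18rap and Il18r1 had 300, 335 and 267 CPM and 232, 315 and 218 CPM in members, and Il12rb2 65.0, 62.4 and 56.4 CPM, against 0.267, 0 and 0.368 CPM in T cells for Il12rb2. Ifngr1 was higher at 591, 880 and 803 CPM, against 115, 134 and 162 CPM. Of 15 genes 7 were higher and 3 lower (all genes: 7.8% and 2.81%), and the lower ones were Il7r, Il21r and Il6st. Il7r had 28.7, 31.2 and 33.6 CPM in members and 613, 731 and 698 CPM in T cells.

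Of 20 transcription factors, 10 were higher and 1, Tcf7, was lower than in T cells (all genes: 7.8% and 2.81%). Against the Ccl5/Nkg7 T cells 7 of 18 were higher (all genes: 8.66%). Id2, needed for innate lymphocytes, had 1347, 1717 and 1485 CPM in members and 83.8, 129 and 122 CPM in T cells. Eomes, which sets natural killer cells apart from type 1 innate lymphoid cells (ILC1), had 326, 219 and 247 CPM in members and 15.8, 6.97 and 14.2 CPM in T cells. Its relative Tbx21 (T-bet) had 161, 162 and 121 CPM, against 3.21, 1.45 and 2.95 CPM. Zeb2, a factor of terminal maturation, had 611, 494 and 412 CPM, against 22.6, 11.9 and 27.4 CPM, and Irf8 519, 590 and 528 CPM, against 8.02, 2.91 and 6.45 CPM. Klf2 and Ets1 were not called. Nfil3, which is required for natural killer cell development, had 21.1, 31.2 and 36.3 CPM in members and 2.01, 4.94 and 4.60 CPM in T cells.

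Markers of the nearest cell types were low. Cxcr6 had 1 UMI over all members and Zfp683 (Hobit, a factor of mouse ILC1) none. Of 8 measured ILC1 genes none was higher and 3 were lower than in T cells. Only 4 of the 10 listed genes had at least 20 UMIs over members. T cells carried the list too, at a sum of 788, 915 and 890 CPM, so this contrast cannot tell ILC1 from natural killer cells. Trac, the constant part of the T cell receptor alpha chain, had 12.7, 25.5 and 10.7 CPM in members and 461, 580 and 554 CPM in T cells, and Cd8b1 2.53, 0 and 1.34 CPM and 642, 575 and 685 CPM. Of 15 T cell genes 13 were lower, but Cd3e, Cd3d and Cd3g among these chose both classes, so their calls were set by the rule. The exception in direction was Trdc, the delta constant gene, which was higher at 81.1, 62.4 and 75.2 CPM in members, against 15.8, 16.9 and 15.1 CPM in T cells. Trbc1, the beta constant gene, was not called, with 341, 460 and 420 CPM in members and 746, 833 and 739 CPM in T cells, and was found in 62.1%, 62.7% and 73.3% of members, against 3.03%, 1.12% and 1.93% of B cells.

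Of 22 trafficking genes, 11 were higher and 3 lower than in T cells (all genes: 7.8% and 2.81%). Itgb2, the beta chain of the leukocyte integrins, had 607, 636 and 505 CPM in members and 124, 126 and 120 CPM in T cells. Ccr2, a chemokine receptor, had 353, 545 and 492 CPM, against 27.5, 42.4 and 50.1 CPM. S1pr5, the egress receptor of natural killer cells, had 177, 125 and 114 CPM in members and 1.47, 0 and 2.21 CPM in T cells. S1pr1, the egress receptor of T cells, was lower at 44.8, 62.4 and 33.6 CPM, against 195, 192 and 183 CPM, as was Ccr7, which leads into lymph nodes, at 4.22, 5.68 and 4.03 CPM, against 352, 377 and 391 CPM. Selplg and Cd47 were not called.

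Other programmes set natural killer cells apart less. Interferon-stimulated genes had 0 of 33 higher and 4 lower than in T cells, at a median log2 of -0.70: Ifi27l2a had 50.7, 14.2 and 52.4 CPM in members and 389, 566 and 781 CPM in T cells, Ly6a 1.69, 2.84 and 2.69 CPM and 105, 232 and 289 CPM, and Slfn1 and Iigp1 were the other two. Of 15 class I antigen presentation genes only H2-Q6 was called, at 225, 267 and 226 CPM in members and 62.2, 53.2 and 64.5 CPM in T cells. Of 20 cell cycle genes 8 were measured and 1 was called, at a median log2 of 0.54, and the list summed to 763, 715 and 842 CPM in members and 800, 791 and 847 CPM in T cells. Mki67 had 1 UMI over all members and Ccna2, Ccnb2 and Birc5 none, while Pcna had 50.7, 53.9 and 52.4 CPM and Top2a 11.0, 8.51 and 10.7 CPM in members, against 35.4, 41.0 and 42.0 CPM and 6.15, 7.26 and 6.81 CPM in T cells. Tubb5 was the called gene, lower at 189, 156 and 205 CPM, against 427, 453 and 429 CPM. Among 15 regulators of survival, Bcl2l11 and Bcl2l1 were among the higher ones and Fas was lower, at 8.44, 8.51 and 5.37 CPM in members and 20.3, 28.2 and 35.0 CPM in T cells. No mitochondrial gene of 13 was called, at a median log2 of -0.35. Bhlhe40 and Nfil3 were the higher genes of 11 clock genes, and Ier2 the 1 higher of 14 immediate early and stress genes, with 138, 150 and 152 CPM in members and 47.1, 70.3 and 73.8 CPM in T cells.

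Genes of mature natural killer cells were present in the members. Of 11 such genes 10 were higher than in T cells, and Ly6c2, which Ccl5/Nkg7 T cells also carried at 703, 435 and 550 CPM, was the one not called, at 556, 559 and 479 CPM in members and 305, 179 and 288 CPM in all T cells. Itgam (CD11b) had 196, 182 and 120 CPM in members and was found in 51.1%, 44.6% and 38.0% of them, and Klrg1 in 38.6%, 33.7% and 36.0%. Cma1, a chymase gene best known from mast cells, was found in 58.6%, 50.6% and 45.3% of members and in 0.257%, 0% and 0% of T cells. Of 11 genes of immature natural killer cells, 2 (Cd7 and Xcl1) were higher and 5 lower than in T cells, which use several of them.

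Cd27 split the members in a way that the rule did not use. It was detected in 83 of 280 members of library 1 (29.6%), 27 of 83 of library 2 (32.5%) and 63 of 150 of library 3 (42.0%), with T cells at 80.8%, 73.8% and 76.5% and B cells at 11.1%, 10.5% and 10.0%. Thinned to 1500 UMIs the members' shares were 8.99%, 17.5% and 11.4%, so most positive cells had few UMIs of Cd27 and the negative class holds cells in which it was missed. Cd27-positive members were deeper, with medians of 4205, 4806 and 5511 UMIs, against 3856, 3727 and 4006 UMIs in Cd27-negative members. A gene was called where the ratio of positive to negative CPM over the 3 libraries summed was at least 2-fold, with an interval excluding 1 and the same direction in each library. Of 7824 genes, 67 (0.856%) were higher and 131 (1.67%) lower in positive cells, at a median log2 ratio of -0.06.

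The genes of immature cells stood out against that background: 8 of the 10 measured, Cd27 itself left out, were higher in Cd27-positive members and none lower, at a median log2 of 1.54. Xcl1 had 447 CPM in Cd27-positive and 154 CPM in Cd27-negative members, a ratio of 2.90 (2.45 to 3.44), with 434 and 136 CPM in library 1, 541 and 112 CPM in library 2, and 426 and 217 CPM in library 3. Thy1, a glycoprotein of lymphocytes, had 166 and 49.5 CPM (3.34, 2.49 to 4.52), and Emb 211 and 81.8 CPM (2.57, 2.03 to 3.28). Tcf7, a factor of early and memory-like lymphocytes, had 68.7 and 23.7 CPM (2.90, 1.87 to 4.57). Slamf6 had 52.9 and 10.8 CPM (4.92, 2.70 to 9.47) and Il7r 55.2 and 15.1 CPM (3.66, 2.15 to 6.43). Ltb and Cxcr3 were the others, and Cd28 and Crtam of further lists were also higher, at 2.08 and 2.39.

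Among the 11 maturation genes none was higher and 3 were lower in Cd27-positive members, at a median log2 of -0.91. Ly6c2 had 241 CPM in Cd27-positive and 717 CPM in Cd27-negative members, a ratio of 0.336 (0.289 to 0.39), and was lower in each library. Cma1 had 136 and 337 CPM (0.404, 0.328 to 0.494) and Cx3cr1, the fractalkine receptor of mature cells, 23.7 and 71.1 CPM (0.333, 0.197 to 0.537), a call that was lost with thinned cells (0.582, 0.229 to 1.32). The rest had ratios below 1 without reaching 2-fold, such as Gzmb at 0.534 (0.483 to 0.589), Zeb2 at 0.565 (0.496 to 0.643), Klrg1 at 0.510 (0.392 to 0.658) and S1pr5 at 0.525 (0.406 to 0.674). Prf1 at 0.617 (0.563 to 0.676) and Gzma at 0.670 (0.653 to 0.688) lay below 1 too, with intervals that excluded it. Itgam (CD11b) was nearer 1, at 0.728 (0.582 to 0.906). With thinned cells it stood at 0.902 (0.601 to 1.33), and with the classes made anew from the thinned counts at 1.19 (0.659 to 2.03). Eomes at 1.12 (0.951 to 1.31), Klra4 at 1.01 (0.921 to 1.10), Klrk1 at 1.01 (0.942 to 1.07) and Ncr1 at 0.967 (0.884 to 1.06) had intervals that included 1. Ccl4 was lower at 0.497 (0.425 to 0.579), with 397 and 475 CPM in library 1, 130 and 346 CPM in library 2, and 136 and 635 CPM in library 3. Klra5, a Ly49 gene seen in few cells, had no UMI in Cd27-positive members and 28 in Cd27-negative ones.

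The calls on the split depended on depth. Thinning to 1500 UMIs with the classes kept left 33 genes called higher and 72 lower over all genes, of which 9 and 12 were among the 67 and 131 above, and with the classes made anew 33 and 49, of which 2 and 2 were. With the cells thinned to 1500 UMIs and the classes kept, all 16 list genes called higher stayed above 1 and 15 were at least 2-fold, and of 16 called lower 15 stayed below 1 and 10 were at least 2-fold. When the classes were made anew from the thinned counts, 13 and 15 of them kept their direction and 6 and 8 were at least 2-fold. Xcl1 then stood at 1.69 (1.11 to 2.50), Thy1 at 1.41 (0.668 to 2.69), Ly6c2 at 0.480 (0.310 to 0.713) and Cma1 at 0.684 (0.398 to 1.11), and Cx3cr1 turned to 1.67 (0.566 to 4.08). Tcf7, Cxcr3 and Slamf6 stayed above 1 with intervals that included it, while those of Emb, Il7r and Ltb excluded it. Crtam, Ifit1 and Ifit2 turned below 1. Genes of monocytes were among those lower in Cd27-positive cells, with Lyz2 at 354 and 862 CPM (0.410, 0.361 to 0.465). Without members rich in haemoglobin, Lyz2 or Cd74 RNA or called as doublets Lyz2 had a ratio of 0.971. With these members left out, all 16 list genes called higher stayed at least 2-fold. Of the 16 called lower, 15 stayed below 1 but only 9 were at least 2-fold, among them Ly6c2 at 0.318 and Ccl4 at 0.483. H2-Aa then stood at 0.735, Ifitm3 at 0.741 and Ifitm2 at 0.706, and Ifi27l2a turned to 1.51. Ifit3 and Ifit1 were called higher on UMIs of which 1 cell of library 1 held 82.1% and 72.7% of that library's total.

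**Figure D3:**
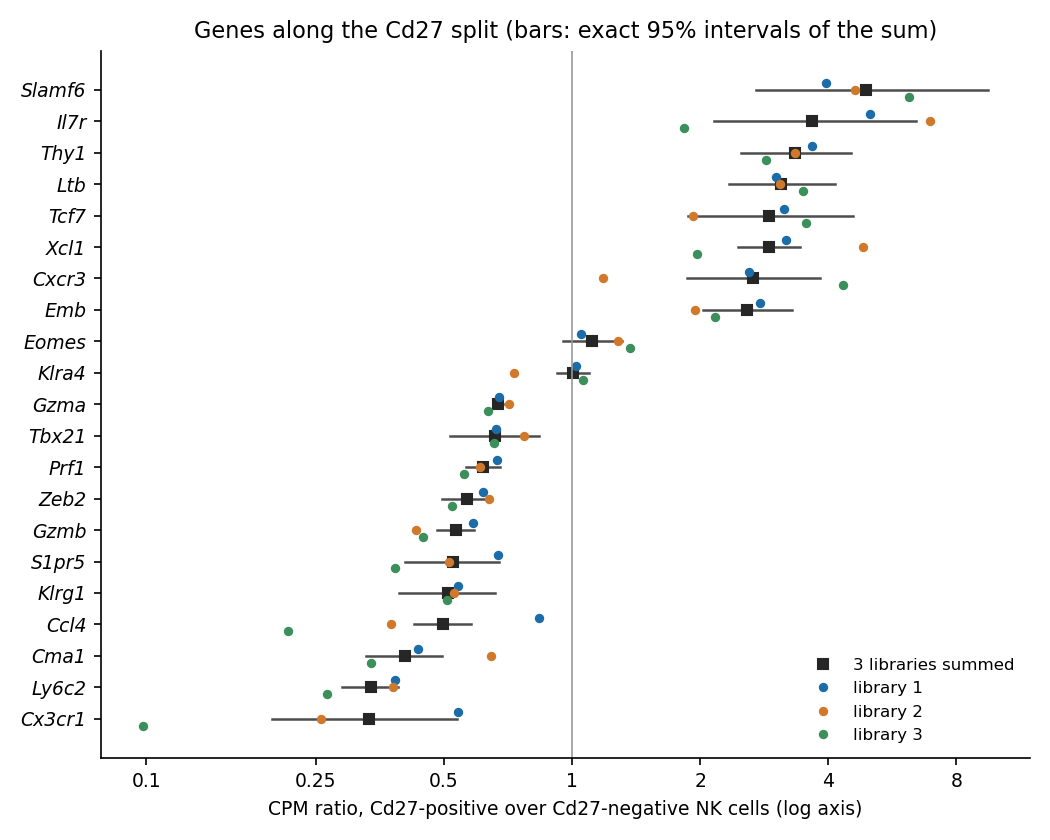
Ratio of CPM in Cd27-positive over Cd27-negative natural killer cells (log axis) for genes of immature and mature cells, with the ratio over the 3 libraries summed, its 95% interval and the ratio in each library. Immature genes such as Slamf6 (4.92) and Thy1 (3.34) lie right of 1 and maturation genes such as Ly6c2 (0.336) left of it.

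Between libraries the natural killer cells differed in a small part of their genes. Of 7825 genes with at least 20 UMIs over all members, 183 (2.34%) were higher and 119 (1.52%) lower in library 1 than in library 2, at 2-fold with an interval excluding 1. In library 1 against library 3 the numbers were 248 (3.17%) and 99 (1.27%), and in library 2 against library 3 they were 125 (1.6%) and 101 (1.29%). T cells of the same libraries had 2.32% and 1.78%, 2.21% and 2.33%, and 0.648% and 1.09% of 10501 genes called. The median log2 ratio of all genes in natural killer cells was -0.01, 0.04 and 0.08 for the 3 pairs. Of the 14 NKG2 and NKR-P1 genes, 15 adaptors and 16 granule genes none was called in any pair. At the shares of all genes given above, lists of this size would hold few or no calls. Of 8 Ly49 genes, 1 was higher for library 1 over 2, 1 lower for 1 over 3 and 2 lower for 2 over 3. Of 12 other activating receptors, 1 was lower for library 1 over 2 and 1 for 1 over 3. Of 20 transcription factors, 1 was lower for library 1 over 2.

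The maturation list leaned to library 1, with medians of 0.30 for library 1 over 2, 0.48 for 1 over 3 and 0.17 for 2 over 3, against T cell medians of 0.08, -0.13 and -0.28. Only 1 of its 11 genes was called: Cx3cr1 had 70.1, 39.7 and 30.9 CPM in libraries 1, 2 and 3, and library 1 stood 2.27-fold over library 3 (1.42 to 3.77). Cma1 had 320, 221 and 180 CPM, Zeb2 611, 494 and 412 CPM, and Itgam 196, 182 and 120 CPM, each in the same order, while Gzmb had 770, 857 and 1195 CPM. Genes of immature cells leaned the other way, with medians of -0.27, -0.34 and -0.10. Of these Emb was called, at 92.0, 122 and 200 CPM, a ratio of 0.460 for library 1 over 3 (0.356 to 0.593), while T cells stood at 0.889 (0.838 to 0.943). Cd27-positive members were 29.6% (24.4 to 35.4%), 32.5% (22.6 to 43.7%) and 42.0% (34.0 to 50.3%) of the libraries in the same order. The median UMIs per member rose in that order too. With members thinned to equal depth, the shares were 8.99% (5.90 to 13.0%), 17.5% (9.91 to 27.6%) and 11.4% (6.79 to 17.6%). The thinned shares did not keep the order, and their intervals overlapped.

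Ifng was lower in library 2 than in both other libraries. It had 70.1 (55.8 to 86.9), 25.5 (11.7 to 48.5) and 95.3 (74.5 to 120) CPM, so library 1 stood 2.74-fold over library 2 (1.38 to 6.21) and library 2 at 0.268 of library 3 (0.118 to 0.538). Library 2 held 9 UMIs of Ifng in 9 cells. Ccl3 had 156, 76.6 and 133 CPM and was called for library 1 over 2 (2.04, 1.36 to 3.18). Ccl4 had 450, 261 and 389 CPM in the same order and was not called (1.72, 1.38 to 2.17, for library 1 over 2). In the Ccl3 and Ifng counts no cell held more than 15.2% of a library's UMIs.

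Of 13 measured genes of the list of glucocorticoid response and adrenergic genes, 4 were called in some pair, each lower in library 1. Tsc22d3 (GILZ, an induced mediator of glucocorticoid action) had 123 (104 to 145), 267 (216 to 326) and 211 (179 to 247) CPM in members of libraries 1, 2 and 3, a ratio of 0.462 for library 1 over 2 (0.354 to 0.605). It was found in 36.4%, 65.1% and 56.7% of members. T cells had 206, 421 and 402 CPM and the same call (0.490, 0.456 to 0.527). Cxcr4, a chemokine receptor that holds cells in the bone marrow, had 16.9, 99.3 and 43.0 CPM in members, with ratios of 0.170 for library 1 over 2 (0.0930 to 0.303), 0.393 for 1 over 3 (0.213 to 0.709) and 2.31 for 2 over 3 (1.39 to 3.86). In T cells it had 28.5, 59.0 and 46.4 CPM. Fkbp5, a co-chaperone of the glucocorticoid receptor, was called for library 1 over 2 (0.485, 0.266 to 0.910) and Ddit4 for library 1 over 3 (0.416, 0.273 to 0.627), with T cells of these pairs at 0.521 and 0.188. Of 13 genes, 3 were lower for library 1 over 2, 2 lower for 1 over 3 and 1 higher for 2 over 3. The shares of all genes for these calls were 1.52%, 1.27% and 1.6%. List medians were -0.12, -0.28 and -0.10 in natural killer cells and -0.81, -0.53 and 0.18 in T cells. Nr3c1, the receptor itself, had 120, 68.1 and 79.2 CPM and was not called.

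Cd69 was lower in library 1 than in both others, at 31.2, 70.9 and 68.5 CPM, with ratios of 0.440 (0.258 to 0.763) and 0.456 (0.290 to 0.710). T cells of these pairs had ratios of 0.718 and 0.640 and were not called. The clock output gene Tef had 31.2, 8.51 and 30.9 CPM, which in library 2 is 3 UMIs, at the floor. Its ratios were 3.67 for library 1 over 2 (1.16 to 18.6) and 0.276 for 2 over 3 (0.0530 to 0.912). Fam184a, named by its rank among genes lower in library 1 than in library 2, had 9.29, 42.6 and 21.5 CPM in members, in 10, 14 and 15 cells, and 0, 0.290 and 0 CPM in T cells. Bcl2, which keeps natural killer cells alive, had 274, 414 and 487 CPM and was called in no pair.

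Of 28 interferon-stimulated genes, 6 were higher for library 1 over 2, 3 higher and 2 lower for 1 over 3, and 7 lower for 2 over 3. The shares of all genes for the same calls were 2.34%, 3.17%, 1.27% and 1.29%. In T cells, of 35 such genes 0 were higher in any of these pairs, and 5, 11 and 1 were lower. Igtp, an interferon-induced GTPase, had 60.8, 17.0 and 51.0 CPM, and library 1 stood 3.57-fold over library 2 (1.56 to 10.1); it was found in 56, 6 and 29 members, and no cell held more than 16.7% of a library's UMIs. T cells had 86.7, 81.9 and 82.9 CPM of Igtp and no call. S100a4, a calcium-binding protein of motile cells, had 161, 45.4 and 220 CPM in members, in 58, 13 and 32 cells, against 107, 135 and 131 CPM in T cells. Other interferon genes rested on single cells: in library 1, 1 cell held 82.1% of Ifit3, 72.7% of Ifit1, 51.2% of Isg15 and 100% of Ifitm1 UMIs. Ifitm3 had 132, 28.4 and 142 CPM, and 1 cell each held 33.3%, 30.0% and 49.1% of it.

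**Figure D4:**
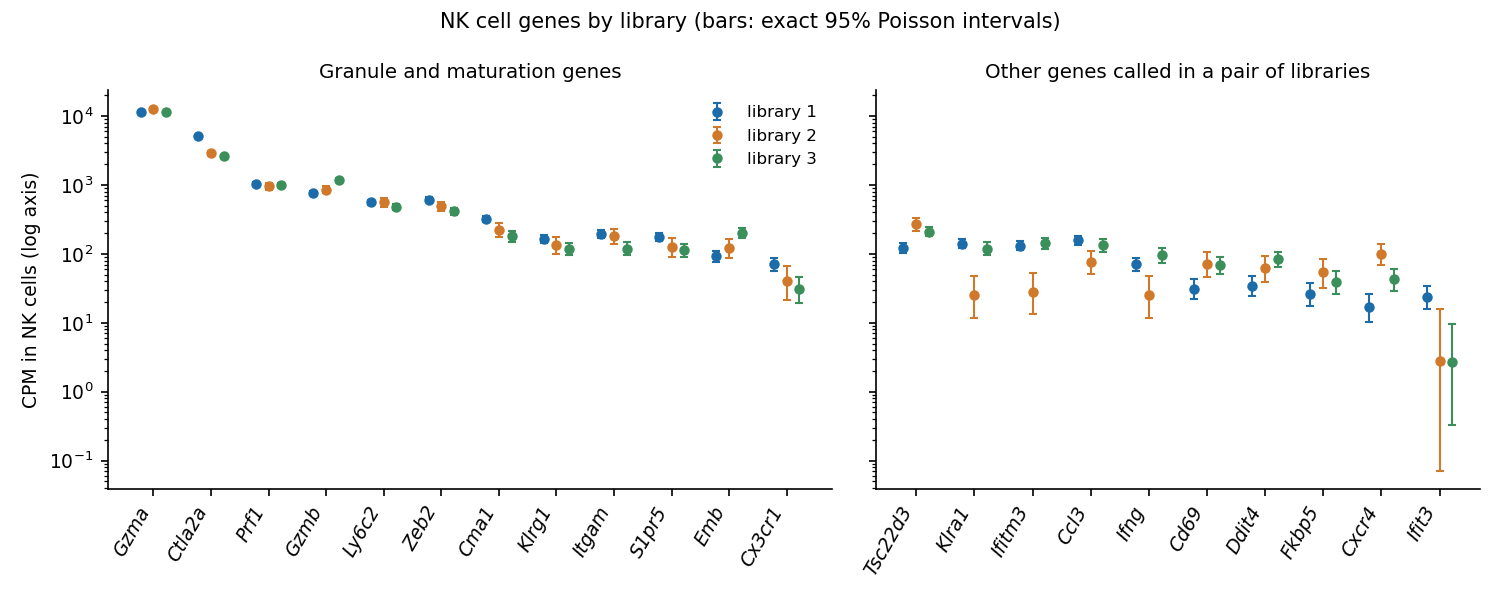
Level in CPM (log axis) of granule and maturation genes and of other genes called in a pair of libraries, in natural killer cells of libraries 1, 2 and 3, with Poisson 95% intervals. Cxcr4 runs from 16.9 to 99.3 CPM and Klra1 from 25.5 to 141 CPM, while Gzma stays between 11338 and 12419 CPM.

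Neutrophil, platelet and B cell RNA moved with the library in natural killer cells and, in the pairs with library 1, the same way in T cells, while haemoglobin did not; the part of such RNA in the calls above was not tested. S100a9, a neutrophil gene, was found in 13.9%, 92.8% and 86.7% of members, in 14.1%, 92.6% and 88.4% of T cells and in 13.7%, 89.3% and 84.2% of B cells. Its level was 126, 587 and 467 CPM in members and 86.5, 561 and 379 CPM in T cells, and 1 member held 73.2% of its UMIs in library 1. Of 7 measured neutrophil genes, 3 were lower for library 1 over 2 and 5 for 1 over 3, against 1.52% and 1.27% of all genes. The list summed to 381, 1246 and 1140 CPM, with Camp and Ltf at 0 UMIs. Platelet genes ran the other way: 4 of 7 were higher for library 1 over 2 and 7 of 7 for 1 over 3, against 2.34% and 3.17% of all genes. Pf4 had 2112, 883 and 739 CPM in members and 1352, 567 and 644 CPM in T cells. Tsc22d1 and Gng11, which led the ranked genes higher in library 1, followed them, with 1140, 377 and 320 CPM and 1929, 763 and 624 CPM in members, against 705, 261 and 262 CPM and 1200, 530 and 553 CPM in T cells. The platelet list summed to 3931, 1700 and 1411 CPM in members and 2499, 1002 and 1128 CPM in T cells.

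B cell genes were higher in library 1, 8 of 9 in both pairs, against 2.34% and 3.17% of all genes. They summed to 674, 216 and 246 CPM. Igkc had 119, 39.7 and 49.7 CPM in members and 82.2, 24.4 and 31.1 CPM in T cells, and Pax5 had 2.53, 0 and 1.34 CPM. Cd74 had 165, 19.9 and 37.6 CPM, of which 1 cell in library 1 held 48.2%. Red cell genes summed to 12123, 755 and 6648 CPM in members and 1209, 2675 and 4657 CPM in T cells; for library 1 over 2 the median log2 was 3.35 in members and -0.94 in T cells. They rested on few cells: Hbb-bs had 5627, 284 and 2667 CPM, and 1 member held 2934 of 6664 UMIs in library 1 and another 1688 of 1986 in library 3. Monocyte genes summed to 1109, 1164 and 1452 CPM with Ccr2 among them, and Cd14 had 0, 0 and 1.34 CPM. Of the members, 8, 2 and 4 were rich in haemoglobin, Lyz2 or Cd74 RNA or were called by the doublet caller.

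**Figure D5:**
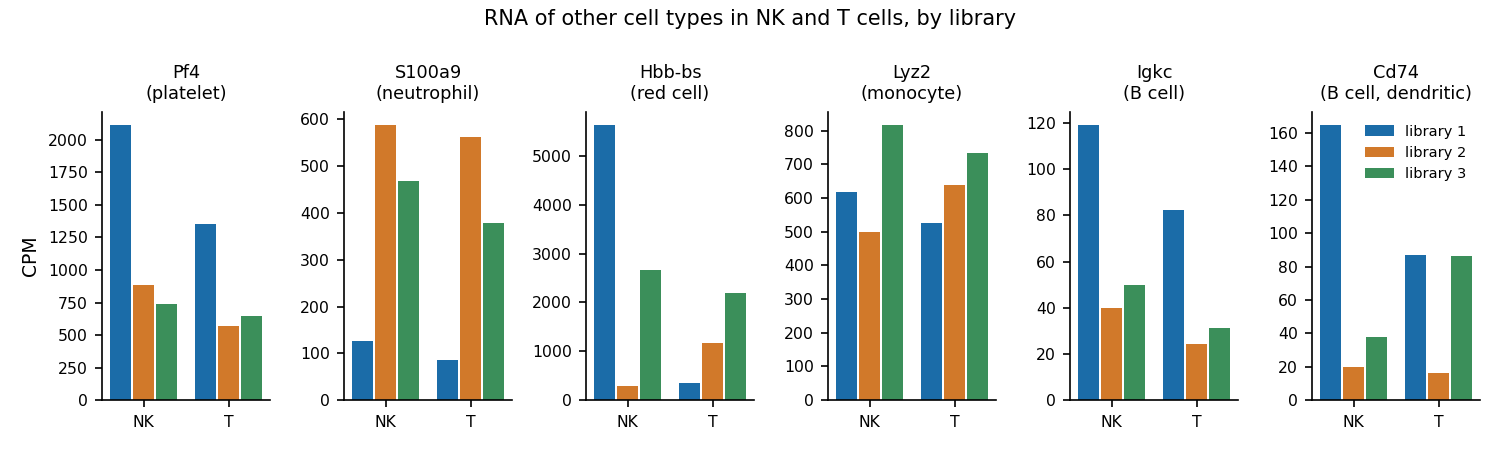
Level in CPM of transcripts of other blood cells in natural killer cells and in T cells, by library, with 1 panel per gene and axes from 0. S100a9 is low in library 1 and Pf4 high there, in both cell types.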

How the data were processed

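Blood leukocytes of 3 groups were profiled with a 3′ droplet kit, per the labels' protocols, with 1 library per group and 3 pooled mice in each. The deposited matrix holds UMI counts per gene and barcode, per the file headers, which give Cell Ranger 6.0.2. Build GRCm38/mm10 and, as tools, Seurat 3.0, R 4.0.2, Cell Ranger 4.0.0 and Trimmomatic 0.39 come from the submitters' processing notes. No source used here says whether ambient RNA or doublets were removed before deposit. Barcode endings 1, 2 and 3 are tied to no group by any label, so each ending was described on its own.

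Members were chosen on raw counts by the rule in the opening. The members and the 29 gene lists were chosen with earlier results of these data known. Counts were summed per class and library and divided by their total (CPM); ratios carry exact conditional 95% intervals, shares exact Clopper-Pearson intervals and levels Poisson intervals, all for counting error only, since 1 library a group allows no test. PCR duplicates are collapsed by UMIs. The count is 3′ based and not divided by length, so levels are not ranked between genes. edgeR 4.0.16 served only for scaling factors by the trimmed mean (TMM) in an alternative. The calling rule was run on simulated counts drawn from a Poisson model, the counting error that the intervals assume. These counts hold no spread between cells or mice, so the run cannot show how the rule behaves on the real data. A gene with 0 UMIs enters list medians at the floor of 3 UMIs per library.

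Named genes were the 8 markers, members of the lists (examples of high level and every list gene called) and the genes ranked by the bound or lowest ratio, without haemoglobin, mt-, immunoglobulin, T cell receptor, ribosomal and sex-linked genes. Doublets were kept. Scrublet (scanpy 1.11.5) with its automatic threshold called 6 of 7122 barcodes in library 1, so a threshold of 0.3 was set for all libraries, which called 157, 150 and 167 barcodes (2.2%, 2.5% and 2.9%); these were left out in an alternative. Alternatives changed the limits of the rule, the gene filter, the scaling, per-cell means, doublets and depth (thinning to 1500 UMIs). Python 3.11.15, numpy 2.4.6, scipy 1.17.1, pandas 2.3.3, Biopython 1.88 (alignments) and R 4.3.3 were used. Gene positions are from GENCODE M21 (GRCm38).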

Additional observations from a re-analysis of the deposited data

How the results depend on the processing

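The share of members was 11.5% of kept barcodes in library 1 and 3.86% in library 3 with a mitochondrial limit of 5%, and 3.21% in library 2 and 4.11% in library 3 with every barcode at 3% or more S100a8/S100a9 left out of the denominator. Against T cells, TMM gave 349 genes higher and 435 lower, and means of per-cell CPM gave 400 lower. Against Ccl5/Nkg7 T cells, TMM gave 268 higher and 365 lower, a filter of 50 UMIs 303 higher, and leaving out library 2 gave 922 higher. For library 1 over 2, per-cell means, which carry no interval, gave 659 higher and 324 lower, the filter of 50 UMIs 63 lower, and leaving out each gene's richest cell 299 higher and 69 lower. For library 1 over 3, per-cell means gave 475 and 193, 50 UMIs 131 and 41, and a filter of at least 1 UMI 155 lower. For library 2 over 3, per-cell means gave 509 and 549 and 50 UMIs 70 and 67. For the Cd27 split, 50 UMIs gave 22 higher and 58 lower, thinning with the split made anew 33 and 49 (2 and 2 shared with the reported genes), and thinning with the split kept 33 and 72 (9 and 12 shared). Apoe was reversed for library 1 over 3, at a log2 ratio of 0.12 without members rich in haemoglobin, Lyz2 or Cd74 RNA or called by Scrublet. Fewer genes pass a stricter filter or a thinned depth; other causes were not tested. The other recomputed counts and shares kept within 1.5 times or within their interval, as did 502 single values, while 41 moved. Alternatives chosen after seeing the data were the S100-free denominator, leaving out a library, leaving out RNA-rich members or each gene's richest cell, and thinning with the split kept. No paired analysis was possible because each group was 1 library tied to no barcode ending. Library 2, with 83 members, limits every pair that holds it.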

Other observations

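Barcodes that met the natural killer gene minimum but carried 2 or more CD3 UMIs fell outside the rule. There were 24 in library 1, 4 in library 2 and 13 in library 3, of which 17, 4 and 7 had 10 or more CD3 UMIs, and their median depth was 6523.5, 9850 and 8048 UMIs. Cd8b1 was detected in 14, 4 and 4 of them, Trac in 14, 4 and 8, and Trdc in 3, 1 and 6. Klrk1 was detected in 15, 3 and 11, Gzma in 11, 1 and 9, Klra4 in 2, 1 and 6, and Cd4 in 1, 0 and 2. Zbtb16, the factor of invariant natural killer T cells, was detected in none of the 41. Scrublet called 2, 0 and 0 of these barcodes.

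A further 1, 7 and 9 barcodes of libraries 1, 2 and 3 met all other limits but had 3% or more of their UMIs from S100a8 and S100a9, and 33, 4 and 6 had 2 or more UMIs of Cd79a and Cd79b. In library 1 alone, 8 barcodes met all else but had over 10% of their UMIs from mt- genes.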
